A study of Homo sapiens with 4 samples.

Results

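The open chromatin regions near the short-arm ends of 17 chromosomes were examined in RKO cells, an established human colon cancer cell line. Peaks from 4 libraries that shared at least 1 bp were merged into regions, and a region belonged to a short-arm end when it ended at or below position 5000000 (hg19) on chromosomes 1 to 12 or 16 to 20. The rule used position alone and left out the acrocentric chromosomes 13, 14, 15, 21 and 22. It selected 705 regions, out of 17722 on the same 17 chromosomes and 20450 on chromosomes 1 to 22 and X. The 17 ends together span 85 Mb, and the remainder of these chromosomes, taken up to the last peak on each, spans 2368 Mb.

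Accessibility had been measured by ATAC-seq, an assay in which a transposase, Tn5, inserts sequencing adapters where nucleosomes leave the DNA free. The cells had been infected stably with a lentivirus, which carried either a control sequence (the control group) or an shRNA against CHD7, labelled shCHD7-2 in the titles and CHD7 shRNA2 as treatment, and each group had 2 libraries. A single hairpin was used here, and the labels do not say whether the infected cells were a pool or a clone, or whether the libraries of a group came from separate cultures, so the spread between them may be technical. Neither the CHD7 transcript nor marker genes of the cell line were measured in the peak lists, so neither the degree of depletion nor the identity of the cells could be checked here.

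The DNA next to a telomere is known as the subtelomere. It is built from segments that several chromosome ends share in near-identical copies, which short reads cannot always place, and it gives way to unique sequence that is rich in genes on many arms. The short arms of the acrocentric chromosomes instead carry ribosomal DNA repeats and were not assembled in this build. CHD7 belongs to the chromodomain helicase DNA-binding family of ATP-dependent remodellers, which slide nucleosomes along DNA. The comparison asks whether the chromosome ends lose accessible regions to the same extent as the remainder of the chromosomes when CHD7 is depleted.

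The number of reads per library is not given in the sources used here. The lists held 12092 to 13257 peaks in control and 7199 to 8715 in shCHD7-2. The background pileup of a library, worked out from the enrichment and significance of its peaks, was 0.843 to 0.916 reads in control and 1.40 to 1.62 reads in shCHD7-2, so the shorter lists came from libraries with the higher background. The smallest summit listed as a peak held 6 reads in each control library and 8 in each shCHD7-2 library. A region without a peak is one under the caller's threshold and need not be closed.

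Fewer peaks were found at the short-arm ends after CHD7 knockdown. Control replicates 1 and 2 had 476 and 432 peaks there, and shCHD7-2 replicates 1 and 2 had 205 and 247. Control averaged 454 ± 31.1 and shCHD7-2 226 ± 29.7 peaks (SD, n = 2 each), which is -1.01 as a log2 ratio. Both knockdown lists lay below both control lists, by far more than the spread between replicates. On the remainder of the same chromosomes the averages were 10578.5 ± 672 and 6693.5 ± 885 peaks (SD, n = 2 each), or -0.66 as a log2 ratio. Both ratios were tested by exact permutation of the libraries, two-sided, and both reached p = 0.33, which is the minimum for 2 libraries against 2. No comparison between groups can therefore pass a threshold of 0.05 in this design. The exact permutation test was applied in the same way to covered length, width, density, share of the list and rank over the ends together, with p = 0.33 unless another value is stated. Over these 12 exact tests it became 0.364 after Benjamini-Hochberg adjustment. Values of single chromosomes, windows and regions were not tested between groups.

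With the 5 Mb limit, the ends and the remainder changed places in peak density. Control replicates 1 and 2 had 5.60 and 5.08 peaks per Mb in the ends against 4.67 and 4.27 elsewhere. In shCHD7-2 replicates 1 and 2 the ends had 2.41 and 2.91 peaks per Mb against 2.56 and 3.09 elsewhere. The ends were thus the denser part in both control lists and the sparser part in both knockdown lists. Expressed as the density of the ends over that of the remainder, the ratio was 1.20 ± 0.00594 in control and 0.941 ± 0.000709 in shCHD7-2 (SD, n = 2 each). On the log2 scale the difference between the groups was -0.35. The replicates of a group differed by far less than the groups did. A spread from 2 libraries is imprecise, however, and was here smaller than the counting error given below for the shares of the lists. The lengths used here include stretches without any region. Over 1 Mb bins with at least 1 region, the log2 ratio was 0.14 in control and -0.21 in shCHD7-2. With the limit at 10 Mb it was 0.22 in control and 0.00684 in shCHD7-2, so the ends were not the sparser part there.

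**Figure D1:**
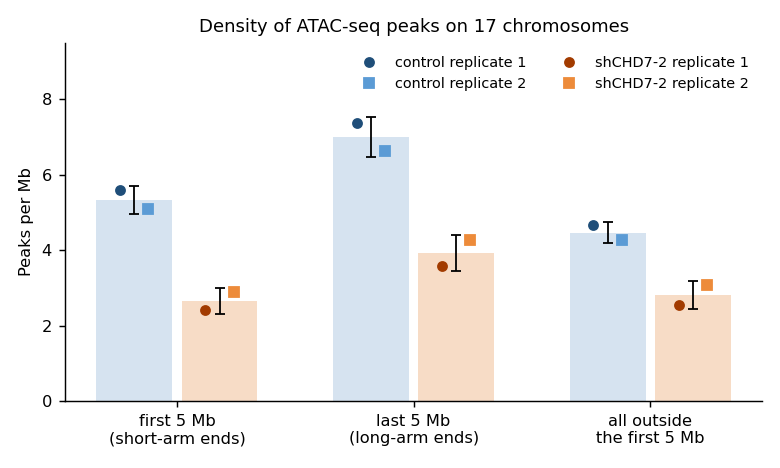
Peaks per Mb in the first 5 Mb, in the last 5 Mb and in everything outside the first 5 Mb of 17 chromosomes. Bars are means of 2 libraries, error bars are SD and points are single libraries. In control the short-arm ends exceed the remainder (5.60 and 5.08 against 4.67 and 4.27 peaks per Mb), and in shCHD7-2 they lie just below it (2.41 and 2.91 against 2.56 and 3.09).

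The share of each list that fell in the ends gives the same comparison with its counting error. It was 4.13% (95% Wilson interval 3.78% to 4.51%) and 4.1% (3.74% to 4.50%) in control replicates 1 and 2. It was 3.27% (2.86% to 3.74%) and 3.26% (2.89% to 3.69%) in shCHD7-2 replicates 1 and 2. Both control shares exceeded both knockdown shares, and the closest intervals, those of control replicate 2 and shCHD7-2 replicate 1, met at 3.74%. These intervals cover counting error over peaks and no variation between cultures.

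The higher density of the ends in control was not seen among the stronger peaks. Under a stricter limit, a -log10 q of 5 or more, the log2 density ratio of ends over remainder was 0.03 in control and -0.30 in shCHD7-2. With each list cut to the length of the shortest, by -log10 p, the ratio was 0.00194 in control and -0.16 in shCHD7-2, and the difference between the groups shrank from -0.35 to -0.16. In either setting the control peaks were about as dense at the ends as elsewhere, and the knockdown peaks were sparser at the ends.

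The covered length followed the number of peaks. Peaks of control replicates 1 and 2 covered 230 kb and 204 kb of the ends, and those of shCHD7-2 replicates 1 and 2 covered 87.6 kb and 104 kb. The means were 217 ± 17.9 kb and 95.7 ± 11.4 kb (SD, n = 2 each), or -1.18 as a log2 ratio, against -0.87 for the remainder. Peaks at the ends were also narrower, with a mean width of 478 ± 6.64 bp in control and 424 ± 5.04 bp in shCHD7-2 against 521 ± 5.15 bp and 449 ± 4.19 bp elsewhere (SD, n = 2 each). The gap in width between ends and remainder was seen in all 4 lists.

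Peaks at the ends were weaker than other peaks in the control lists. Ranked within its own list by fold enrichment, the summit pileup over the local background, the median peak of the ends stood at percentile 44.5 and 41.2 in control replicates 1 and 2. The median of all other peaks on these chromosomes stood at 50.3 and 50.4. In shCHD7-2 replicates 1 and 2 the ends had medians of 51.4 and 49.5, close to the 50.1 and 51.8 of the other peaks.

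The gap in rank was therefore -7.53 ± 2.45 percentile points in control and -0.503 ± 2.57 in shCHD7-2 (SD, n = 2 each), a difference of 7.02 points. This difference depended on the measure: ranked by -log10 p, the gap was -8.86 points in control and -7.63 in shCHD7-2, a difference of 1.23 with overlapping groups (exact permutation, two-sided, p = 0.667). Over the first 2 Mb alone the difference by fold enrichment was -0.818 points, with the opposite sign (exact permutation, two-sided, p = 1).

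In reads, the median summit of the ends held 12 reads in each control list and 13 in each shCHD7-2 list. Other peaks on the same chromosomes held a median of 13 reads in each control list, and of 14 and 15 reads in shCHD7-2 replicates 1 and 2. The local background under the peaks was lower at the ends as well, at 1.34 and 1.28 reads against 1.46 and 1.40 in the control lists, and at 1.80 in each against 1.88 and 2.04 in the shCHD7-2 lists. The tallest summit at any end held 58 reads, in control replicate 1, where the tallest elsewhere held 99. Ends and remainder are compared within a list here, since reads of separate lists share no established scale.

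Of the 705 regions at the ends, 346 (49.1%) were called in a single library, which is close to the 47.7% of the remainder. Another 298 had a peak in both control libraries and 118 in both shCHD7-2 libraries. There were 98 regions with a peak in all 4 libraries, here called kept. Regions with peaks in control lists alone made up 53.2% at the ends and 44.6% elsewhere, and those with peaks in shCHD7-2 lists alone made up 15.2% and 19.8%.

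Regions called in both control libraries and in neither shCHD7-2 library are referred to as lost. At the ends 130 of 298 were lost (43.6%, 95% Wilson interval 38.1% to 49.3%), where the share over all 17 chromosomes was 34.3%. On the remainder of these chromosomes 2436 of 7185 were lost (33.9%, 32.8% to 35.0%). The ends exceeded the remainder by 9.72 percentage points (Newcombe interval 4.1 to 15.5, counting error over regions only). With control replicate 1 or 2 left out, so that 1 control list defined the regions, 233 of 425 and 272 of 471 were lost. With shCHD7-2 replicate 1 or 2 left out it was 157 and 173 of 298, and the excess over the remainder was 8.18 to 9.04 points in these 4 settings. Kept regions were correspondingly fewer, with 32.9% of the 298 against 40.5% elsewhere.

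Gained regions were few at the ends, but their number depended on each library. Of the 118 regions called in both shCHD7-2 libraries, 6 had no peak in either control library (5.08%, Wilson interval 2.35% to 10.7%), where the share of such gained regions over all 17 chromosomes was 10.5%. The remainder alone had 10.7%, and the interval at the ends stops just above the share over all 17 chromosomes and just below that of the remainder. Leaving out control replicates 1 and 2 in turn gave 15 and 11 gained regions of the 118. Leaving out shCHD7-2 replicate 1 gave 65 of 245, and leaving out shCHD7-2 replicate 2 gave 48 of 203. Shares of gained regions over all 17 chromosomes were not worked out in these or the other alternative settings. The counts there cannot be set against the background. With lists of equal length the ends had 39 of 152 regions lost in place of 130 of 298, and 20 gained in place of 6. The gap in the lost share to the remainder was then 2.40 points, with an interval from -4.01 to 9.98. Under the stricter q limit that gap was 5.65 points, from -2.03 to 13.3.

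Between replicates of a group, the share of regions missed was slightly higher at the ends, but each Wilson interval there included the share elsewhere. These intervals were 32.5% to 41.2% and 25.7% to 34.4% for the regions of control replicates 1 and 2. For the regions of shCHD7-2 replicates 1 and 2 they were 35.3% to 48.7% and 45.6% to 58.0%. A difference within groups was thus not detectable. The second control library missed 36.7% of the end regions of the first, against 34.2% elsewhere, and the first missed 29.9% of those of the second, against 27.6%. In shCHD7-2 replicate 2 missed 41.9% of the end regions of replicate 1, against 37.7%, and replicate 1 missed 51.8% of those of replicate 2, against 48.3%. From control to shCHD7-2 the gap between ends and remainder was wider than within either group. For control replicate 1, 70.1% of end regions had no peak in shCHD7-2 replicate 1 and 65.0% none in replicate 2, against 62.9% and 57.9% elsewhere. For control replicate 2 the shares were 67.3% and 63.3% at the ends and 60.5% and 54.9% elsewhere. In the other direction the ends did not exceed the remainder: 30.5% of the end regions of shCHD7-2 replicate 1 were missing from control replicate 1, against 32.1%, and for shCHD7-2 replicate 2 it was 32.7% against 36.0%.

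The lost regions at the ends were mostly low in the control lists. Their mean rank by -log10 p in the 2 control lists had a median at percentile 37.4, whereas the kept regions at the ends had a median of 76.7. The ends as a whole held more low-ranking regions than the remainder, with medians of 55.0 and 63.5 over the regions that both control lists contained. When all of these regions were divided by rank into 10 equal strata, the 3 lowest held 41.3% of the regions at the ends and 29.5% of those elsewhere, and the 3 highest held 19.1% and 30.5%.

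At equal rank the excess was small. The loss rates of the remainder, applied stratum by stratum to the ranks of the 298 regions, gave 122 lost regions, against the 130 observed, a ratio of 1.07 (interval 0.933 to 1.21 from the Wilson bounds). In the 3 lowest strata the ends lost 87 of 123 regions (70.7%) and the remainder lost 59.5%. In the 3 highest strata the ends lost 4 of 57 (7.02%) and the remainder lost 7.82%. The order of the shares was not the same in all strata, as stratum 5, counted from the lowest, lost 25% at the ends and 40.9% elsewhere. The interval of the ratio includes 1, so a difference at equal rank was not detectable with this number of regions.

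**Figure D2:**
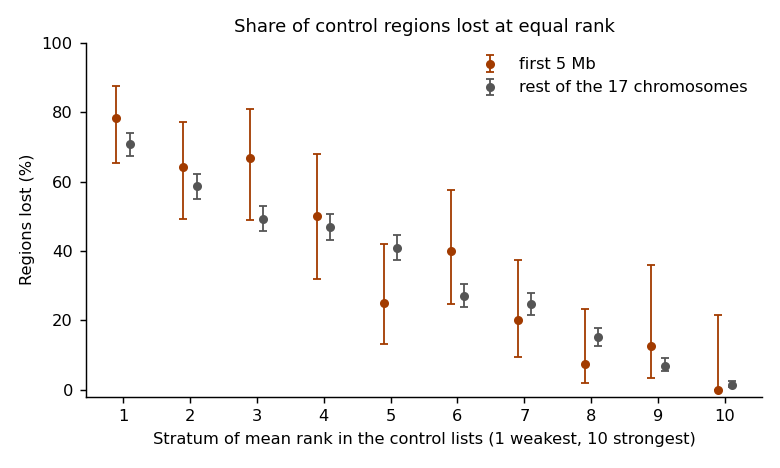
Share of control regions that were lost, by stratum of mean rank in the control lists, for the first 5 Mb and for the remainder of the 17 chromosomes. Points are shares with 95% Wilson intervals. From the lowest to the highest stratum the share goes from 78.4% to 0 of 14 regions at the ends and from 70.9% to 1.5% elsewhere, and the intervals overlap in each stratum.

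The share of regions lost was highest in the outermost 5 Mb and nearly as high in the 5 Mb that followed. Taking the mean of the knockdown lists over the mean of the control lists, the number of peaks was 0.498 times control between 0 and 5 Mb, 0.594 times between 5 and 10 Mb, 0.675 times between 10 and 15 Mb and 0.686 times between 15 and 20 Mb. Beyond 20 Mb it was 0.631 times. The share of control regions lost was 43.6%, 40.0% (34.6% to 45.6%), 29.4% (24.0% to 35.4%) and 28.5% (23.1% to 34.5%) over the same 4 steps, and 34.0% beyond 20 Mb. The intervals of the first and the next 5 Mb overlap.

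In steps of 1 Mb the lowest ratio was found between 1 and 2 Mb. There the control lists had 95 and 83 peaks and the shCHD7-2 lists had 30 and 42, a ratio of 0.404, and 32 of 53 regions were lost (60.4%, 46.9% to 72.4%). In the outermost Mb there were 88 and 79 peaks in control and 41 and 35 in shCHD7-2, and 26 of 59 regions were lost (44.1%, 32.2% to 56.7%). The step from 3 to 4 Mb had the most peaks, with 105 and 102 in control and 57 and 62 in shCHD7-2, and the smallest share lost at the ends, 21 of 71 (29.6%, 20.2% to 41.0%). Restricting the ends to the first 2 Mb widened the gap in the lost share to 17.8 percentage points, and the difference in log2 density ratio to -0.55.

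**Figure D3:**
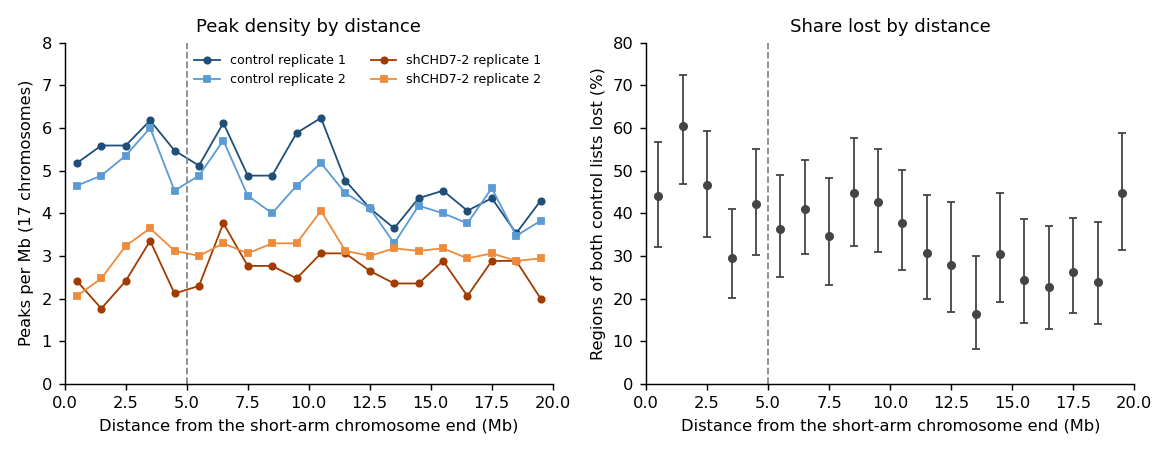
Left, peaks per Mb over 17 chromosomes in steps of 1 Mb from the short-arm end, with a line for each library. Right, share of control regions that were lost, with 95% Wilson intervals. The dashed line marks the 5 Mb limit. Between 1 and 2 Mb shCHD7-2 has 0.404 times the peaks of control and the share lost reaches 60.4%.

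The regions nearest to the 5 Mb limit on either side were neither lost nor gained. Just inside lay a region on chromosome 4 from 4996987 to 4997199, with 9 reads in control replicate 2 only, and a region on chromosome 9 from 4984684 to 4985401, with 14 and 11 reads in control and 13 in shCHD7-2 replicate 2. A region on chromosome 20 from 4981371 to 4981666 had 7 reads in control replicate 1 only. Just outside lay a strong region on chromosome 6 from 5003771 to 5004728, with 46 and 47 reads in control and 25 and 26 in shCHD7-2. A region on chromosome 16 from 5007741 to 5008666 followed, with 12 and 9 reads in control and 11 in shCHD7-2 replicate 2, and then one on chromosome 10 from 5010882 to 5011216, with 8 reads in control replicate 1 only.

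The long-arm ends, taken as the last 5 Mb before the final peak of the same chromosomes, resembled the short-arm ends in loss. They held 927 regions, and 160 of 394 called in both control libraries were lost (40.6%, 35.9% to 45.5%). The short-arm ends exceeded this by 3.02 percentage points with an interval from -4.37 to 10.4, so a difference between the arms was not detectable. The long-arm ends were denser, with 7.38 and 6.64 peaks per Mb in control and 3.59 and 4.27 in shCHD7-2, and the log2 ratio of their peaks was -0.83. Gained regions were 23 of 196 there (11.7%, 7.95% to 17%). By fold enrichment the median long-arm end peak stood at percentile 42.9 and 41.2 in control replicates 1 and 2. It stood at 45.5 and 46.8 in shCHD7-2 replicates 1 and 2. The low fold rank in control was thus not particular to the short-arm ends. By -log10 p the long-arm medians were 48.3 and 46.7 in control, against 44.1 and 39.9 at the short-arm ends.

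The 17 ends differed widely among themselves. They held from 10 to 65 regions with a median of 41. The most were found on chromosome 16 (65), chromosome 1 (59) and chromosome 6 (56), and the fewest on chromosome 8 (10), chromosome 5 (26) and chromosomes 12 and 18 (27 each). In control 11 ends were denser than the remainder of their own chromosome and in shCHD7-2 7 ends were. The control density at an end ranged from 0.190 times that of its chromosome, on chromosome 8, to 3.01 times, on chromosome 16.

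At 12 of the 17 ends (70.6%) both knockdown lists had fewer peaks than both control lists. The share among all 490 windows of 5 Mb on these chromosomes was 66.1%, so the ends were close to the background in this respect. At 1 end both knockdown lists had more peaks than both control lists, where the background was 5.51%. The lists overlapped at the other 4 ends, those of chromosomes 3, 5, 8 and 10. In 13 ends the ratio of shCHD7-2 to control was below that of the remainder of the same chromosome.

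**Figure D4:**
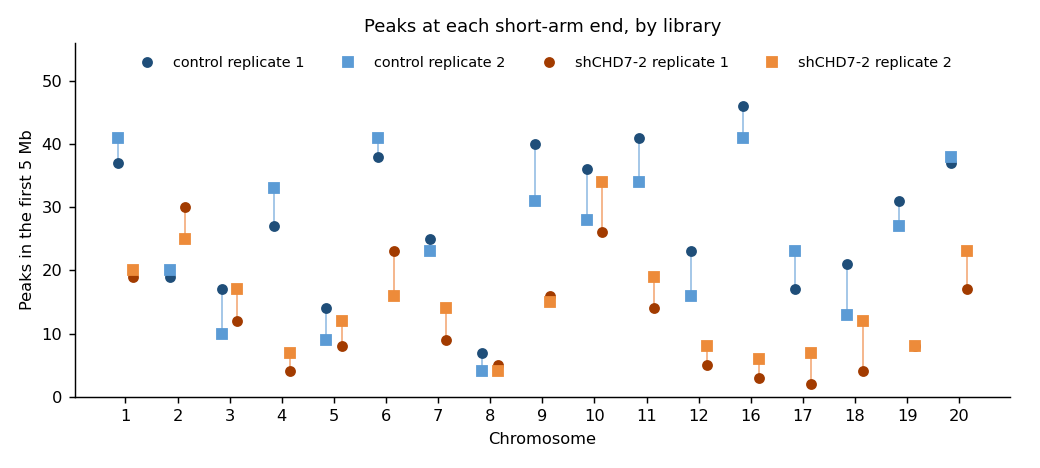
Peaks in the first 5 Mb of each of 17 chromosomes, with a point for each library and a line joining the replicates of a group. Both shCHD7-2 points lie below both control points at 12 ends. Chromosome 16 shows the widest gap (46 and 41 against 3 and 6), and on chromosome 2 the knockdown lists are the higher ones (30 and 25 against 19 and 20).

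Chromosome 16 had the densest end in control and, with chromosomes 8 and 17, the emptiest after knockdown. Its end held 46 and 41 peaks in control replicates 1 and 2 and 3 and 6 peaks in shCHD7-2 replicates 1 and 2, or 0.103 times control. Elsewhere on chromosome 16 the lists held 267 and 226 peaks in control and 129 and 161 in shCHD7-2, or 0.588 times. Of 23 regions called in both control libraries at this end, 20 were lost (87.0%, Wilson interval 67.9% to 95.5%), against 51 of 151 elsewhere on the chromosome (33.8%). The difference was 53.2 percentage points (Newcombe interval 32.5 to 64.2).

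The regions at this end were weak in control, with a median rank at percentile 35.2, yet more of them were lost than the 12.4 that the remainder of the 17 chromosomes would give at the same ranks. The region kept in all 4 lists lay from 2932522 to 2933325, with 20 and 22 reads in control and 15 and 11 in shCHD7-2. Lost regions were found along the whole 5 Mb, from 103350 to 4785014. The strongest of them by rank, from 4784204 to 4785014, had 13 and 19 reads in control. The next 5 Mb of the chromosome had few peaks in any list, 8 and 7 in control and 7 and 10 in shCHD7-2, and none of the 3 regions found in both control lists was lost there.

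Chromosome 4 behaved in a like manner. Its end held 27 and 33 peaks in control and 4 and 7 in shCHD7-2, or 0.183 times control, while the remainder of the chromosome stood at 0.655 times. There 14 of 20 regions were lost (70.0%, 48.1% to 85.5%) against 138 of 427 elsewhere (32.3%), a difference of 37.7 percentage points (15.3 to 53.7). At the ranks of these regions 7.71 would have been lost. The next 5 Mb held 23 and 15 peaks in control and 12 and 14 in shCHD7-2, and the windows from 10 to 20 Mb had more peaks in the knockdown means (18 and 30) than in the control means (14 and 24).

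The ends of chromosomes 2 and 10 kept their regions. On chromosome 2 the control lists had 19 and 20 peaks and the shCHD7-2 lists 30 and 25, or 1.41 times control, whereas the remainder of the chromosome stood at 0.615 times. Of its 13 regions called in both control libraries 10 were kept and 2 were lost. These regions had a median control rank at percentile 76.8, and 3.48 would have been lost at the same ranks, close to the 2 observed. On chromosome 10 there were 36 and 28 peaks in control and 26 and 34 in shCHD7-2, which overlap, and 16 of 23 regions were kept and 1 was lost. That share of 4.35% (0.772% to 21%) was 24.4 percentage points below the remainder of chromosome 10 (interval from -30.2 to -7.24), and 7.12 regions would have been lost at the same ranks.

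These 4 ends were singled out after their values were seen, from 17 intervals with no adjustment for their number. The intervals of the difference from the own chromosome lay above 0 on chromosomes 4 and 16, below 0 on chromosome 10, and included 0 at the other 14 ends. Chromosome 2, at -21 percentage points (-32.6 to 6.11), is among the latter. In 11 ends the share lost was above that of the own chromosome and in 6 it was below.

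The excess loss rested largely on chromosomes 4 and 16. Without them the gap in the lost share between ends and remainder was 3.64 percentage points, with an interval from -2.20 to 9.83, and the difference in log2 density ratio was -0.15. Without chromosome 16 alone these values were 6.09 points (0.370 to 12.1) and -0.23. Without chromosomes 2 and 10 they were 14.5 points (8.40 to 20.7) and -0.60. The ratio of observed to rank-matched loss was 0.939 without chromosomes 4 and 16 and 0.999 without chromosome 16.

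Such windows also occurred away from the ends. Among the 273 windows of 5 Mb with a control mean of at least 20 peaks, the end of chromosome 16 had the fourth lowest ratio (rank 4) and that of chromosome 4 ranked 17. The end of chromosome 2 had the 15th highest ratio among all 490 windows (rank 15). Over the 17 ends the log2 ratio of mean peaks with 0.5 added ran from -3.14 to 0.49 with a median of -1.03, and over the other 473 windows it ran from -4.75 to 2.00 with a median of -0.67. The interquartile ranges, -1.51 to -0.26 and -1.44 to -0.17, overlapped almost entirely.

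**Figure D5:**
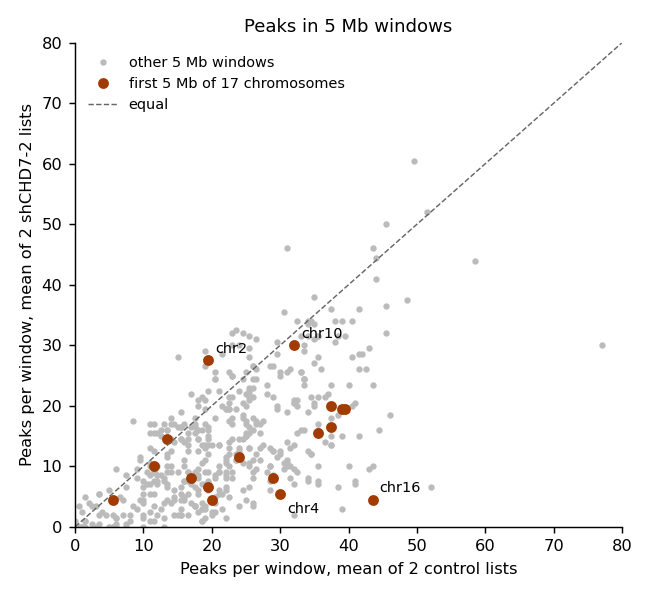
Mean number of peaks in the 2 shCHD7-2 lists against the mean in the 2 control lists for 490 windows of 5 Mb on 17 chromosomes. The dashed line marks equal numbers, and the first 5 Mb of each chromosome are coloured. The end of chromosome 16 (43.5 against 4.5 peaks) and that of chromosome 4 (30.0 against 5.5) lie far below the line, and the end of chromosome 2 (19.5 against 27.5) lies above it.

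The other ends with many regions lay between these extremes. Chromosome 1 had 37 and 41 peaks in control and 19 and 20 in shCHD7-2, and 15 of 28 regions were lost (53.6%, 35.8% to 70.5%), close to the 14.1 given by their ranks. Chromosome 6 had 38 and 41 peaks in control and 23 and 16 in shCHD7-2, with 11 of 28 lost and 11.8 at equal rank. Both ends were below control in both knockdown lists and lost about as many regions as others of their rank.

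Ends with few regions said little on their own. On chromosome 8 the lists held 7 and 4 peaks in control and 5 and 4 in shCHD7-2, and 1 of 4 regions was lost. Chromosome 5 had 14 and 9 peaks in control and 8 and 12 in shCHD7-2, with 1 of 7 lost. Chromosome 18 had 21 and 13 against 4 and 12, with 5 of 12 lost.

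On chromosome 12 the 23 and 16 peaks of the control lists stood against 5 and 8 in shCHD7-2, and 7 of 13 regions were lost. The remainder of chromosome 12 was low as well, at 0.442 times control, with 186 of 392 regions lost (47.4%). The difference in the lost share was 6.40 percentage points (Newcombe interval -18.8 to 29.9), and 5.49 regions would have been lost at equal rank. The ends of chromosomes 17 and 19, which are rich in genes, had ratios of 0.225 and 0.276. Their chromosomes as a whole were low as well, at 0.394 and 0.329 outside the ends. At these ends 5 of 11 and 9 of 19 regions were lost (45.5% and 47.4%), against 50.0% and 50.3% outside the ends. At equal rank 6.09 and 9.40 would have been lost.

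The outermost region on a chromosome began between 11606, on chromosome 2, and 713940, on chromosome 1. The former, from 11606 to 11805 on chromosome 2, was listed in shCHD7-2 replicate 2 alone with 11 reads. The outermost kept region began between 149080, on chromosome 7, and 3982229, on chromosome 12, where it was also the only region kept. Regions at the ends lay somewhat closer together than elsewhere. The distance to the nearest neighbour had a median of 30.7 kb against 33.8 kb, and 26.8% of regions against 23.6% had a neighbour within 10 kb.

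Of the lost regions, those ranking highest in the control lists were found on chromosomes 4, 11 and 20. The first, on chromosome 4 from 775503 to 776318, had summits of 28 and 26 reads in control replicates 1 and 2, at fold enrichments of 9.42 and 8.82. The second, on chromosome 11 from 2421170 to 2421982, had 29 and 33 reads at 7.43 and 8.46. Each had no peak in either shCHD7-2 list, and the reads there are not known, since the lists give none outside peaks.

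The third, on chromosome 20 from 4065935 to 4066562, had 18 and 20 reads in control. The remaining 2 were again on chromosome 4, from 124145 to 125013 with 20 and 17 reads and from 1161000 to 1161797 with 17 and 16 reads. Their mean control ranks ran from percentile 92.0 for the first to 75.9 for the last named.

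The kept regions named here ranked highest over the 4 lists together, so a high rank in shCHD7-2 was part of their choice, and their reads are given list by list without a comparison between groups. A region on chromosome 11 from 4414373 to 4415331 had 37 and 41 reads in control and 45 and 37 in shCHD7-2. The widest region at any end, 1764 bp on chromosome 2 from 676040 to 677803, had 55 and 53 reads in control and 52 and 50 in shCHD7-2. A region on chromosome 9 from 2655296 to 2655956 had 32 and 39 against 32 and 35 reads.

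The next 2 lay on chromosome 9 from 2014683 to 2015723, with 58 and 42 reads in control and 35 and 38 in shCHD7-2, and on chromosome 10 from 1094538 to 1095510, with 36 and 38 against 25 and 29. Over all 98 kept regions at the ends the median summit held 19.5 and 18.5 reads in control and 15.5 and 17 in shCHD7-2. The kept regions elsewhere had medians of 23 and 21 in control and 16 and 18 in shCHD7-2, so the kept regions of the ends had the lower summits in each list.

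The 6 gained regions were scattered over 6 chromosomes. The strongest lay on chromosome 2 from 2060939 to 2061677, with 18 and 21 reads in the shCHD7-2 lists, followed by chromosome 20 from 3153741 to 3154279 with 16 in each, and chromosome 10 from 1758042 to 1758469 with 13 and 17. Next were chromosome 5 from 2996351 to 2996834 with 11 and 12 reads and chromosome 3 from 4332097 to 4332482 with 11 and 10. The sixth, which lies outside the rule for named regions and was added to complete the list, was on chromosome 11 from 4560889 to 4561193 with 10 and 9 reads, close to the lowest summit listed. Genes and sequences at these positions were not analysed here, since the gene table at hand describes another genome build.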

How the data were processed

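ATAC-seq peak lists of 2 control and 2 shCHD7-2 libraries of RKO cells were analysed, with groups and replicate numbers taken from the sample titles. The authors called peaks in each library separately and deposited narrowPeak lists. The submitters' processing notes name hg19, Bowtie2 2.2.5, SAMtools 1.9, MACS2 2.1.2 and deepTools 3.3.0. Removal of duplicates, extension of reads and any shift for the Tn5 cut are not given in the sources used here, and each would change which positions reach the threshold. For each summit the authors deposited a fold enrichment (a ratio of pileup to local background), the -log10 of the p-value and q-value, and a score, which for 99.97% of peaks is the whole part of 10 times the -log10 q. The distance of the summit from the peak start was used only to place it. The lowest -log10 q was 1.30 to 1.32 in the 4 lists, a limit at q = 0.05.

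The members, lists and tests were chosen with earlier results of these data known. Peaks on chromosomes 1 to 22 and X were merged when they shared at least 1 bp. The 13 to 16 peaks per library on other sequences were not used. Whole-number pileups k and backgrounds b were recovered from fold = (k + 1) / (b + 1) and the Poisson p-value, within 0.001 in -log10 p for 100% of peaks. The length of a chromosome was taken as its last peak end. Groups were compared by exact two-sided permutation tests over the 6 assignments of libraries, and shares were given with 95% Wilson and Newcombe intervals, which cover counting error only. The named regions were the 5 highest-ranking lost, kept and gained members, the outermost, the widest, and the 3 ends with the most and the fewest regions. Scripts were tested on simulated data. Alternatives were other end limits, a stricter q, lists of equal length, leaving out libraries or chromosomes, a replicate block, other joining of peaks, and other weights and ranks. The software was pandas 2.3.3, SciPy 1.17.1, NumPy 2.4.6 and matplotlib 3.10.9 under Python 3.11.15.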

Additional observations from a re-analysis of the deposited data

Results flagged for a closer look

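The scaffold chrUn_gl000214, outside the chromosomes compared above, held 1 peak in each shCHD7-2 library and none in either control library. It was marked because a signal in data that no comparison used exceeded the control level. With 1 peak per library no test was made.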

How the results depend on the processing

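The lower number of peaks and covered length at the ends in shCHD7-2 kept their direction under each alternative that was run. So did the difference between the groups in log2 density ratio. The exact permutation p stayed at 0.33 for these wherever all 4 libraries entered without a block. The log2 density ratio within shCHD7-2 was above 0 for the first 10 Mb, at 0.00684. Without chromosomes 4 and 16 it was only just below 0, at -0.0194. Leaving out each library gave a log2 ratio of -1.15 to -0.88 for peaks and -1.31 to -1.06 for covered length, a difference of -0.35 to -0.34 in log2 density ratio, one of 5.21 to 8.84 points in rank, and a gap in the lost share of 8.18 to 9.04 points. Under a replicate block the first 4 values were -1.01, -1.18, -0.35 and 7.02 points (exact test by sign flips, p = 0.5, the minimum for 2 pairs). The titles link same-numbered libraries by their number alone. The correlation of their differences in calls was -0.02 over the 705 regions. It would not show a batch that shifted all regions alike, so it does not decide whether these libraries were paired.

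Over the first 2 Mb the difference in rank was -0.818 points and the gap in the lost share 17.8 points. The ratio of observed to rank-matched loss there was 1.21, with 58 of 112 regions lost and 1 gained. In the first 10 Mb 250 of 598 regions were lost, a gap of 8.17 points, and 23 were gained. Lists of equal length, which drop the peaks lowest by -log10 p from the longer lists, gave a gap of 2.40 points and a ratio of 0.960. They had 39 of 152 regions lost and 20 gained. A -log10 q of at least 5 gave a ratio of 0.995 and a gap of 5.65 points, with 85 of 166 regions lost. The ratio was 0.999 without chromosome 16, the one with the most members. Without chromosomes 4 and 16, chosen after seeing the data, it was 0.939 and the gap 3.64 points. Without chromosomes 2 and 10, also chosen after seeing the data, the ratio was 1.14 and the gap 14.5 points. Without 1 library 11 to 65 regions were gained, as 1 library of a group then makes the call: 15 and 11 without control replicates 1 and 2, and 65 and 48 without shCHD7-2 replicates 1 and 2. The causes of the moves between settings were not tested. A weak region can miss the threshold in any library, and the effect of read depth on these counts was not tested.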
